A study of Mus musculus with 2 samples.

Results

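The genes described here are the 6 mouse microRNA (miRNA) genes of the miR-23, miR-27 and miR-24 families: Mir23a, Mir27a and Mir24-2 in a cluster on chromosome 8, and Mir23b, Mir27b and Mir24-1 in a paralogous cluster on chromosome 13. They were taken by gene symbol from the 2202 miRNA genes of the deposited tables, and all 6 were found. The libraries are small RNA sequencing libraries of adrenal gland tissue from aged female mice, made from total RNA with a labelled size range under 30. There is 1 group with 2 biological replicates. All samples are from female B6CASTF1/J animals aged 18 to 20 months, the first-generation offspring of a cross between the C57BL/6J and CAST/EiJ strains, with no treatment given in the labels. Each replicate is a separate tissue sample, but both are filed under a single donor record. The spread between the replicates is therefore the spread between these samples, and how many animals gave them is not stated. No second condition was analysed here, so every comparison is between genes or between the 2 libraries.

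A miRNA gene is transcribed as part of a longer primary transcript, from which hairpins are cut and trimmed to a short mature RNA. The mature RNA guides the silencing machinery to messenger RNAs, mainly through its seed, bases 2 to 8 from the 5′ end. Hairpins that lie close together on a strand can be cut from 1 primary transcript, as is known for both of these clusters. The families are known from blood vessels, where they act in endothelial cells and angiogenesis. The miR-23 family is known to repress mitochondrial glutaminase, the miR-27 family to hold back adipocyte formation by repressing Pparg, and miR-24 to act on the enzymes that complete cortisol and aldosterone synthesis in human adrenocortical cells.

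The mature sequences are shown first because they set what a read can tell apart. They come from RefSeq (GRCm38.p6), in which all 6 hairpins matched by name. Their letters and positions equalled those of GENCODE M21. Each is written 5′ to 3′ with the seed in capitals. The entry for miR-23b-3p was missing.
miR-23a-3p: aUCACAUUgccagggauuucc
miR-27a-3p: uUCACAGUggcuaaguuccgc
miR-27b-3p: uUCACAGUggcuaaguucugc
miR-24-3p (Mir24-1 and Mir24-2): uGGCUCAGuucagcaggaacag
miR-24-1-5p: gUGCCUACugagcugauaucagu
miR-24-2-5p: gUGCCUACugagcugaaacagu

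The miR-27 paralogs have a common seed, UCACAGU, and their 3p arms differ by a single substitution over 21 bases, C19U, counted from the 5′ end with the base of miR-27a-3p first. The first 18 of the 21 bases of miR-23a-3p also occur in the Mir23b hairpin. The miR-24-3p sequence is the same at both loci. A stretch of 28 bases is common to the Mir24-2 and Mir24-1 hairpins, with the 22 bases of the arm and 3 more on each side. The 5p arms share their first 16 bases and differ from position 17 on, over lengths of 22 and 23 bases. A whole miR-24-3p read therefore matches chromosomes 8 and 13 alike, whereas a whole miR-27 read matches 1 of its paralogs exactly. The hairpin of Mir24-2 is given as an example of how the arms lie, with the 3p arm in capitals.
Mir24-2 hairpin (chromosome 8, 84208815 to 84208921, plus strand): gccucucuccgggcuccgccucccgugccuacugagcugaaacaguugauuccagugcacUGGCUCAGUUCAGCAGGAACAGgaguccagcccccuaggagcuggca

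Only 4 other annotated miRNA genes have a mature arm with the seed of one of the printed 3p arms. Mir5124b, Mir6369, Mir6410 and Mir6413 share GGCUCAG with miR-24-3p. Each had 0 own-strand counts in both libraries, which allows up to 1.16 CPM in replicate 1 and 1.31 CPM in replicate 2 (3 counts of the total). CPM are own-strand counts per 1000000 own-strand counts in miRNA genes. The listed mature arms of the 6 genes, which lack miR-23b-3p, are 21 to 23 bases long, so counts were not divided by hairpin length.

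Positions are on mm10 with GENCODE M21, and all 6 genes are on the plus strand. On chromosome 8, Mir23a (ENSMUSG00000065611.1) spans 84208518 to 84208592, Mir27a (ENSMUSG00000065444.1) 84208672 to 84208758 and Mir24-2 (ENSMUSG00000065541.1) 84208815 to 84208921. The cluster covers 404 bases, with 79 bases between its first pair of hairpins and 56 between its second. Mir23a and Mir27a lie in no other annotated gene. The last 2 bases of Mir24-2 overlap the exon of the lincRNA Gm26532 on the same strand, and Mir24-2 is overlapped on the minus strand by the miRNA gene Mir3074-2 over 83 bases.

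On chromosome 13, Mir23b (ENSMUSG00000065599.2) spans 63300484 to 63300557, Mir27b (ENSMUSG00000065475.2) 63300712 to 63300784 and Mir24-1 (ENSMUSG00000105904.1) 63301208 to 63301275. This cluster is wider, at 792 bases, with 154 and 423 bases between its hairpins. All 3 genes lie within the protein-coding gene 2010111I01Rik, an aminopeptidase gene named Aopep in RefSeq, on the same strand. They are also antisense to an intron of the DNA repair gene Fancc. Mir23b is intronic in all 9 transcripts of 2010111I01Rik that span it. Mir27b lies in an exon of 1 of 9, annotated as UTR, and Mir24-1 overlaps exons of 4 of 11, of which 2 have UTR there. The miRNA gene Mir3074-1 overlaps Mir24-1 on the minus strand along its whole length.

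**Figure D1:**
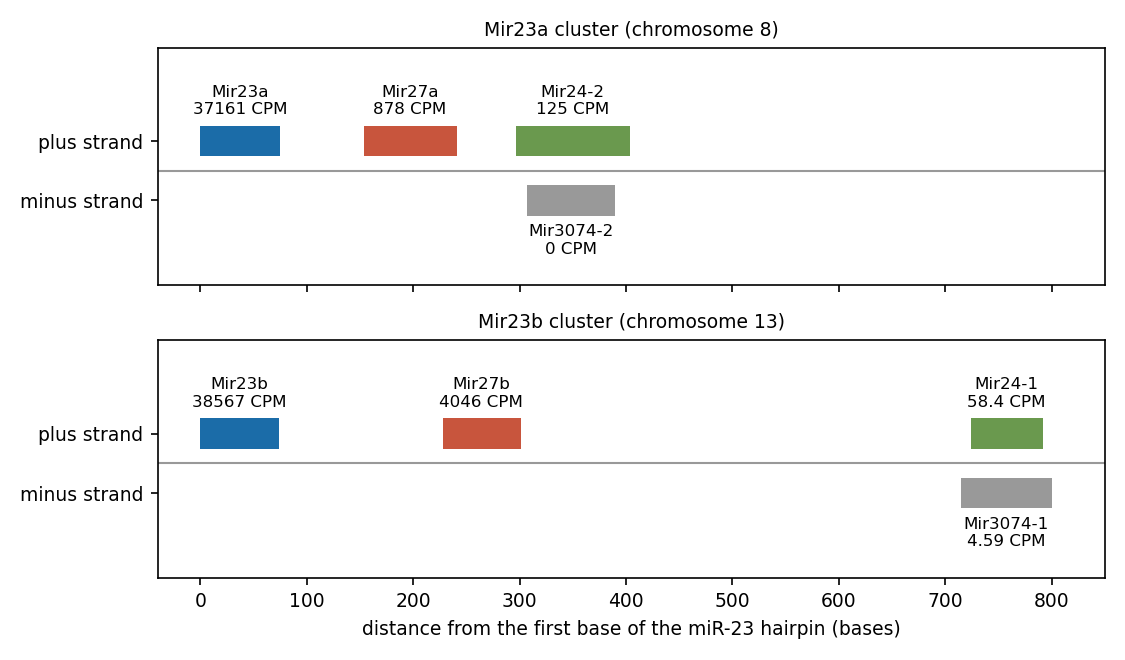
Map of both clusters, drawn to scale: the x axis is the distance in bases from the first base of the miR-23 hairpin, boxes are annotated hairpins by strand, and the number at each box is its mean own-strand level in CPM over 2 replicates. The chromosome 8 hairpins lie within 404 bases and those on chromosome 13 within 792 bases. In both the mean level falls from miR-23 to miR-27 to miR-24, but miR-24 levels leave out whole miR-24-3p reads, which match both loci.

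The 2 libraries held 2590051 and 2291030 own-strand counts in miRNA genes for replicates 1 and 2. Reads that aligned to several places stand in a row of their own, outside the gene counts, and came to 0.910 and 0.855 for each counted read. Which miRNAs those reads belong to was not analysed here, so levels of genes with a near-identical copy are uncertain and may be too low. A whole miR-24-3p read matches both miR-24 loci, so it stands outside the counts of Mir24-1 and Mir24-2. The levels of these genes therefore do not measure miR-24-3p. Reads that differ from mm10 at CAST/EiJ alleles may also be missing, which was not tested. At least 10 counts in each library were found for 339 genes, all 6 described here included. The tables hold miRNAs only, so the labelled tissue could not be checked against the enzymes of steroid synthesis.

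Together the 6 genes took 5.47% of own-strand counts in replicate 1, with a Wilson 95% interval of 5.44 to 5.49. In replicate 2 they took 10.7% (10.66 to 10.74), and the mean was 8.08% ± 3.70 (SD, n = 2). Intervals here and below account for counting error alone. They treat each read as a separate molecule, which reads copied by PCR are not. Nearly all of that share was miR-23. The miR-23 genes took 4.84% and 10.31%, the miR-27 genes 0.608% and 0.377%, and the miR-24 genes 0.0222% and 0.0144%, in replicates 1 and 2. The cluster on chromosome 8 held 2.44% and 5.19%, and that on chromosome 13 held 3.03% and 5.51%. Both clusters were thus of like size in each library.

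Mir23b had 65313 counts in replicate 1 and 118944 in replicate 2, or 25217 and 51917 CPM, a mean of 38567 ± 18880 CPM (SD, n = 2). Mir23a had 59932 and 117260 counts, or 23139 and 51182 CPM, a mean of 37161 ± 19829 CPM (SD, n = 2). Both were higher in replicate 2, and their means differed by less than the spread between replicates. By level among all genes they ranked 12 (Mir23b) and 13 (Mir23a) in replicate 1, and 4 and 5 in replicate 2.

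Mir27b had 12915 and 7115 counts, or 4986 and 3106 CPM, a mean of 4046 ± 1330 CPM (SD, n = 2), and ranked 33 and 44. Mir27a, with 2835 and 1515 counts, stood at 1095 and 661 CPM, a mean of 878 ± 306 CPM (SD, n = 2), and ranked 75 and 95. The miR-27 genes were both higher in replicate 1, and the levels of Mir27b and Mir27a did not overlap. Mir24-2 had 423 and 198 counts, or 163 and 86.4 CPM, a mean of 125 ± 54.4 CPM (SD, n = 2). Mir24-1 had 152 and 133 counts, or 58.7 and 58.1 CPM, a mean of 58.4 ± 0.448 CPM (SD, n = 2). Mir24-1 was the lowest of the 6 and nearly level across the libraries, below Mir24-2 in both. Both miR-24 genes are counted without whole miR-24-3p reads, so their place below the other genes is not a measure of miR-24-3p. The order by CPM, Mir23b, Mir23a, Mir27b, Mir27a, Mir24-2 and Mir24-1, was the same in each library, and only the first pair lay closer than its SD.

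**Figure D2:**
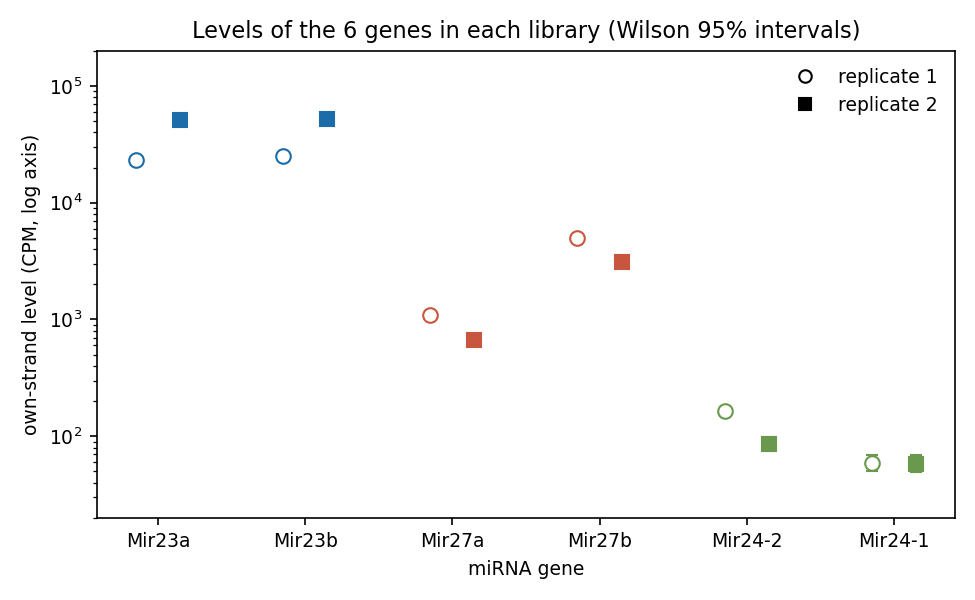
Own-strand level of each gene in CPM on a log axis, with open circles for replicate 1, filled squares for replicate 2 and bars for Wilson 95% intervals, mostly smaller than the symbols. The miR-23 genes lie between 23139 and 51917 CPM and are higher in replicate 2, the miR-27 genes are higher in replicate 1, and Mir24-1 is at 58.7 and 58.1 CPM.

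When the 2 libraries were set against each other, the miR-23 genes moved one way and Mir27a, Mir27b and Mir24-2 the other. Mir24-1 was nearly level. The log2 ratio of replicate 2 over replicate 1 was 1.18 for Mir23a (exact 95% interval 1.17 to 1.20) and 1.08 for Mir23b (1.07 to 1.09), which are 2.27-fold and 2.11-fold. For both the adjusted p underflowed to 0 in the exact binomial test. It was −0.69 for Mir27a (−0.78 to −0.60, adjusted p = 3.26e-52) and −0.65 for Mir27b (−0.69 to −0.60, adjusted p = 8.04e-208) in the same exact test, so the miR-27 genes were 1.61-fold and 1.56-fold higher in replicate 1. For Mir24-2 it was −0.88 (−1.13 to −0.63, exact test, adjusted p = 9.65e-13), or 1.84-fold higher in replicate 1. Mir24-1 had a log2 ratio of 0.02 (−0.32 to 0.37) and did not pass the exact test (adjusted p = 0.95).

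The test is a two-sided exact conditional binomial test of the reads of these 2 libraries, scaled by TMM factors, with Benjamini-Hochberg adjustment over 367 genes with a summed count of at least 20. Its only error is counting error, so it compares the libraries and not conditions. Of the 6 genes, 5 passed at an adjusted p of 0.05. The miR-23 pair was higher in replicate 2, and the other 3 were higher in replicate 1. Among all tested genes 62.7% passed, 30.2% as higher in replicate 2 and 32.4% as higher in replicate 1, so passing was common at this depth and the size of the difference says more than the call. With TMM factors from all genes and no filter, 724 genes were tested instead of 367. The 111 and 119 calls in the 2 directions then became 85 and 134, and log2 ratios were lower by 0.13. The median log2 ratio was 0.01 and the median absolute one 0.46 over all tested genes, against a median of −0.31 over the 6. A common dispersion fitted to the 2 libraries gave a biological coefficient of variation of 0.432.

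**Figure D3:**
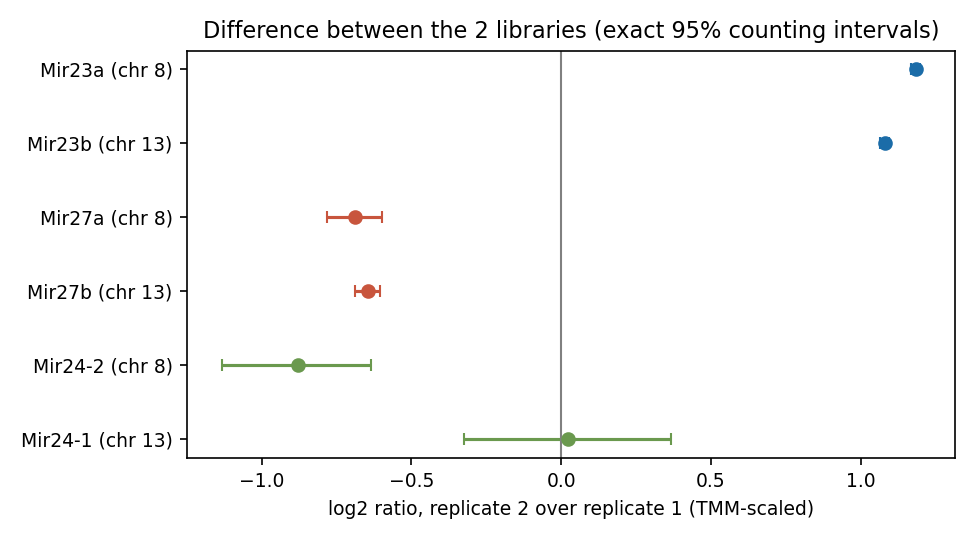
Log2 ratio of replicate 2 over replicate 1, TMM-scaled, for each of the 6 genes, with exact 95% counting intervals as bars. Mir23a and Mir23b lie at 1.18 and 1.08, Mir27a and Mir27b at −0.69 and −0.65, Mir24-2 at −0.88, and the interval of Mir24-1 spans 0.

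Differences of more than 2-fold were uncommon among abundant genes. Of the 367 genes, 298 lay within 2-fold and 69 beyond it, 29 of those higher in replicate 2. At a mean of at least 10000 CPM there were 22 genes, and with TMM factors Mir23a and Mir23b were the ones beyond 2-fold. The endothelial Mir126a, at a log2 ratio of −0.92, followed in size and in the opposite direction. The place of Mir23b depends on the scaling: with DESeq2 size factors the 2 genes beyond 2-fold were Mir23a (1.09) and Mir126a (−1.01), with Mir23b at 0.99. With no filter they were again Mir23a (1.05) and Mir126a (−1.05), with Mir23b at 0.95. By absolute log2 ratio, Mir23a ranked 53 and Mir23b 61 of 367, Mir24-2 92, Mir27a 126, Mir27b 141 and Mir24-1 356.

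**Figure D4:**
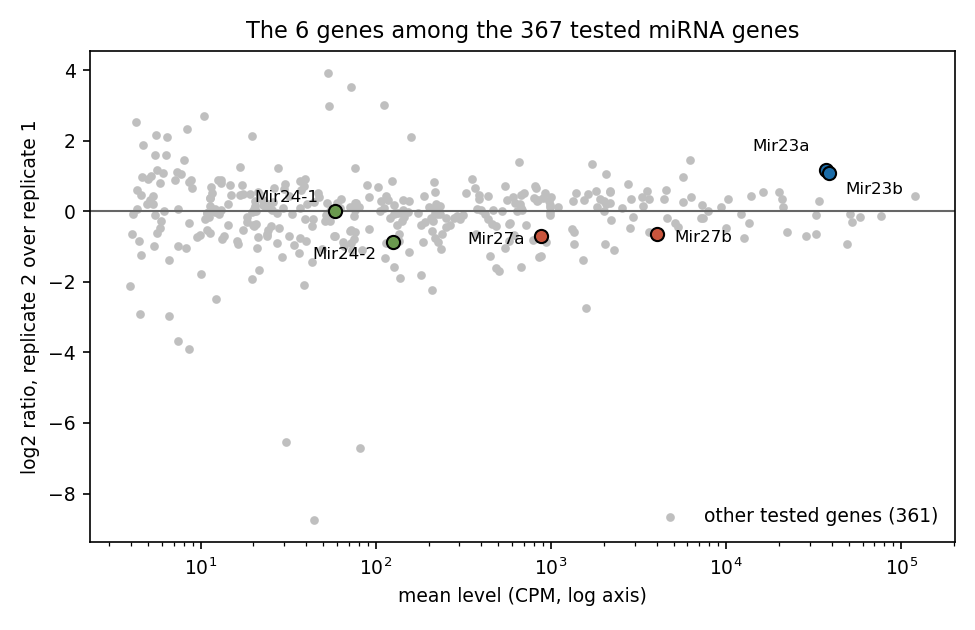
Log2 ratio of replicate 2 over replicate 1 against mean level in CPM (log axis) for the 367 tested miRNA genes, with the 6 named genes in colour and the others in grey. At the right, above 10000 CPM, Mir23a and Mir23b are the points beyond a log2 ratio of 1 under this TMM scaling. With DESeq2 size factors or no filter, Mir23b lies within that ratio and Mir126a beyond −1. The miR-27 genes lie at about −0.7, at mean levels of 878 CPM (Mir27a) and 4046 CPM (Mir27b).

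Ratios of counts within a library need no scaling between libraries and show the same pattern. The ratio of Mir23a to Mir27a, neighbours on chromosome 8, was 21.1 in replicate 1 and 77.4 in replicate 2, a 3.66-fold change (exact 95% interval 3.44 to 3.90). Mir23b to Mir27b, neighbours on chromosome 13, went from 5.06 to 16.7, a 3.31-fold change (3.21 to 3.41). The miR-23 to miR-27 ratio was thus several-fold higher in replicate 2 at both loci, and the change on chromosome 8 exceeded that on chromosome 13 by 1.11-fold (1.03 to 1.19).

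Between paralogs on different chromosomes the ratios of miR-23 and miR-27 genes were almost level. Mir23a to Mir23b was 0.918 in replicate 1 and 0.986 in replicate 2, a 1.07-fold change (1.06 to 1.09). Mir27a to Mir27b was 0.220 and 0.213, a change of 0.970-fold (0.905 to 1.04) whose interval includes no change. Mir27b thus made up 82.0% and 82.4% of miR-27 counts, and Mir23a 47.9% and 49.6% of miR-23 counts. The longest stretch common to the Mir23a and Mir23b hairpins is 20 bases, as it is for Mir27a and Mir27b. In both pairs a read trimmed to the common bases cannot be placed in 1 of the genes.

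The miR-24 genes did not share this behaviour. Mir24-2 to Mir24-1 fell from 2.78 to 1.49, a change of 0.535-fold (0.397 to 0.721), and the share of Mir24-2 among miR-24 counts went from 73.6% (69.8 to 77.0, Wilson 95% interval) to 59.8% (54.5 to 65.0). On chromosome 8, Mir27a to Mir24-2 was 6.70 and 7.65, a 1.14-fold change (0.951 to 1.37) whose interval includes no change. On chromosome 13, Mir27b to Mir24-1 was 85.0 and 53.5, a change of 0.630-fold (0.495 to 0.802). These ratios rest on miR-24 counts of 575 and 331 in all, from reads that could be placed in 1 of the copies.

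Within each cluster the shares shifted accordingly. On chromosome 8, Mir23a made up 94.8% of the cluster's counts in replicate 1 and 98.6% in replicate 2, Mir27a 4.49% and 1.27%, and Mir24-2 0.669% and 0.166%. On chromosome 13, Mir23b made up 83.3% and 94.3%, Mir27b 16.5% and 5.64%, and Mir24-1 0.194% and 0.105%. The miR-27 share was larger on chromosome 13 than on chromosome 8 in both libraries. Whole miR-24-3p reads are outside these counts, so the miR-24 shares are of placed reads only.

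To place these gaps, all adjacent genes with at least 10 counts in each library, on a common strand and within 10 kb, were listed. The 108 pairs, which include the neighbours described here, had a median gap of 0.51 in log2 ratio. The gap of Mir23a and Mir27a was 1.87, and 1 pair was wider. The gap of Mir23b and Mir27b was 1.72, and 3 pairs were wider, Mir23a and Mir27a among them. Gaps of the remaining neighbours were nearer the middle, at 0.19 for Mir27a and Mir24-2 (87 pairs wider) and 0.67 for Mir27b and Mir24-1 (44 wider). Across chromosomes the gap was 0.10 for Mir23a and Mir23b, 0.04 for Mir27a and Mir27b, and 0.90 for Mir24-2 and Mir24-1.

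**Figure D5:**
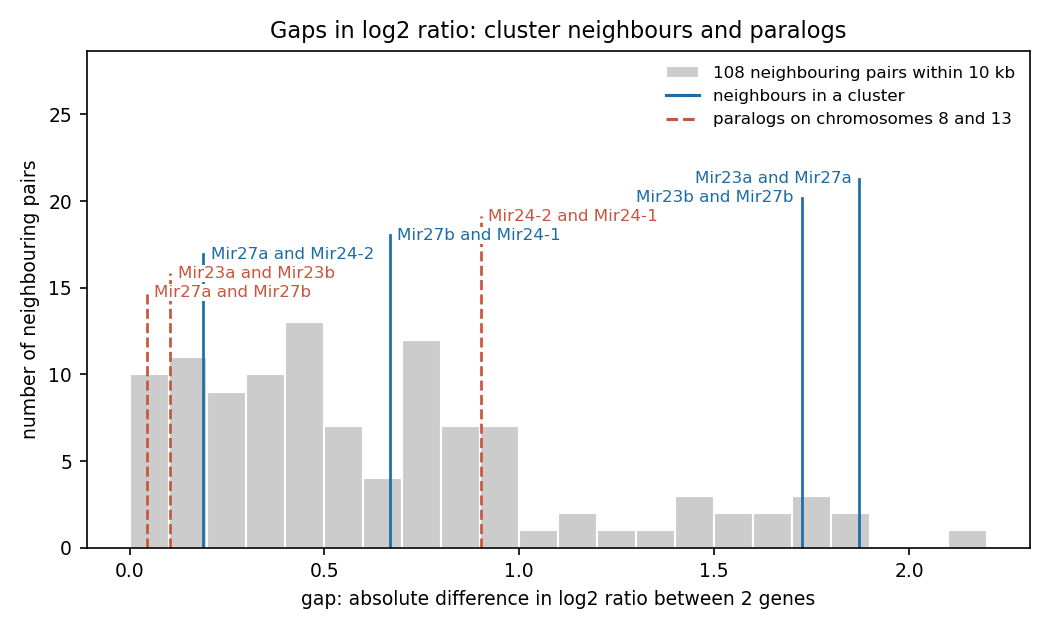
Histogram of the gap (absolute difference in log2 ratio between the libraries) for 108 neighbouring pairs within 10 kb, with solid lines for neighbours in the miR-23, miR-27 and miR-24 clusters and dashed lines for their paralogs. The miR-23 to miR-27 neighbours lie in the far right tail at 1.87 and 1.72, and the miR-23 and miR-27 paralogs at the left edge at 0.10 and 0.04.

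A second set was chosen after the values were seen: genes at separate loci, with at least 10 counts in each library, whose mature arms share a seed. Its 173 pairs, over 121 genes, had a median gap of 0.48. Of these, 9 pairs were closer than Mir27a and Mir27b, and 132 were closer than Mir24-2 and Mir24-1. Pairs share genes and families, so these counts describe the set only, and Mir23a and Mir23b are not in it.

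The strand columns bear on miR-24 alone. With strand ignored, Mir24-2 and Mir24-1 were both listed at 0, while Mir23a, Mir23b, Mir27a and Mir27b kept the same counts. Of the 6 genes, only the miR-24 genes are overlapped by miRNA genes on the other strand. Mir3074-2, antisense to Mir24-2, had 0 own-strand counts in both libraries. Mir3074-1, antisense to Mir24-1, had 17 and 6 counts, or 6.56 and 2.62 CPM, below Mir24-1 in each library.

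The genes with a mean of at least 1000 CPM whose log2 ratio lay nearest the miR-23 mean of 1.13 were, of 69 candidates, Mir145a, Mir674 and Mir671. Mir145a, a smooth muscle miRNA, went from 3496 to 6335 counts (1.07 in log2 ratio), Mir674 from 10172 to 17112 (0.96) and Mir671 from 2584 to 5592 (1.33). Nearest the miR-27 mean of −0.67 were Mirlet7d, Mir21a and Mirlet7f-2. Mirlet7d, of the let-7 family, went from 103692 to 56719 counts (−0.66), Mir21a from 92558 to 49389 (−0.69) and Mirlet7f-2 from 11370 to 6474 (−0.60). This likeness is over 2 libraries only, and many genes are near any given ratio.

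Other vascular miRNAs leaned towards replicate 1, as the miR-27 genes did and the miR-23 genes did not. Of 20 listed vascular and angiogenic miRNAs, 18 were measured and 16 tested, of which 10 were higher in replicate 1, 5 were higher in replicate 2 and 1 did not pass, with a median log2 ratio of −0.54 against 0.01 over all tested genes. The shares of all tested genes in these directions were 32.4% (towards replicate 1) and 30.2% (towards replicate 2). The most abundant was Mir126a, an endothelial miRNA in Egfl7, at 64752 and 33413 CPM. Mir143, a smooth muscle miRNA next to Mir145a, followed at a log2 ratio of −0.59. Of 18 measured miRNAs of adipocyte differentiation, a list without the miR-27 genes, 17 were tested. Of these 6 were higher in replicate 1, 5 were higher in replicate 2 and 6 did not pass, a share of calls near the 62.7% over all tested genes. The median was 0.02 and fell below 0 under every other scaling or filter tried (−0.07 with DESeq2 size factors). Its most abundant members were Mir378a, at a log2 ratio of −0.31, and Mir143.

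Markers of cell types that the gland or its surroundings could hold also differed between the libraries, as summed levels in replicates 1 and 2. Fewer cells of a type and less RNA per cell cannot be told apart in bulk tissue. Both endothelial markers were higher in replicate 1, against 32.4% of all tested genes, and summed to 64764 and 33414 CPM. Nearly all of that sum was Mir126a, as Mir126b, antisense within it, had 31 and 3 counts. The smooth muscle and pericyte pair summed to 28442 and 20276 CPM, with Mir143 lower and Mir145a higher in replicate 2. The erythroid markers summed to 831 and 409 CPM over the 2 measured of 4 listed, Mir451a and Mir144. The striated muscle list of 8 summed to 598 and 81.2 CPM, with Mir1a-1, Mir133a-1 and Mir133a-2 at 0 in both libraries and the cardiac Mir208a at 231 and 0 counts. Whether reads of the genes at 0 stand among those that align to several places was not analysed. The 4 tested members of the striated muscle list were all higher in replicate 1, against 32.4% of all tested genes.

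The 5 leukocyte markers summed to 2033 and 1985 CPM, and the hepatocyte marker Mir122 stood at 622 and 702 CPM. The 7 epithelial markers summed to 1192 and 1871 CPM, most of it Mir203, at 1147 and 1618 CPM. Of the 5 epithelial markers tested, 4 were higher in replicate 2, against 30.2% of all tested genes. The median log2 ratio over the 5 was 2.12, that of Mir141 at 6 and 24 counts, and that of Mir203 was 0.53. Mir429 went the other way, at −0.99 on 19 and 8 counts, and did not pass. Mir200c, the second by level, went from 25.1 to 197 CPM (3.00 in log2 ratio). The 4 neuroendocrine markers, led by Mir375 and Mir7b, summed to 66107 and 56588 CPM. All 4 were higher in replicate 1, against 32.4% of all tested genes, with log2 ratios from −0.17 (Mir375) to −0.70 (Mir7-2). The libraries therefore differed in endothelial, erythroid, striated muscle, epithelial and neuroendocrine marker levels beside the differences in miR-23 and miR-27 genes. Mir122 also passed as higher in replicate 2, at a log2 ratio of 0.21, and the smooth muscle pair passed in opposite directions. Among the 5 leukocyte markers, 1 passed in each direction and 3 did not pass, where 62.7% of all tested genes passed. The part of these markers in the results on miR-23, miR-27 and miR-24 genes was not tested.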

How the data were processed

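The deposited tables hold raw read counts per miRNA gene, made by the authors on mm10 with GENCODE M21 per the deposited notes; strand-ignored, own-strand and opposite-strand columns were told apart from the values. The sources used here do not give the aligner, counting program or trimming. The 4 rows that name no gene (unmapped 40.6% and 29.8% of the tables' reads, several places 24.0% and 28.0%, no feature 8.94% and 9.44%) were left out of library sizes. Own-strand counts were scaled with TMM factors (edgeR 4.0.16; 1.01 and 0.987, over genes with a summed count of at least 20) and tested per gene with SciPy 1.17.1 (exact conditional binomial, prior count 0.5 for log2 ratios); ratio intervals came from R 4.3.3. Scripts were tested on simulated data. Alternatives were DESeq2 1.42.0 size factors, total counts, other filters, strand ignored and each replicate left out.

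The members and lists were chosen with earlier results of these data known. Named were the 6 genes, miRNA genes overlapping them, up to 6 sharing a 3p seed, the 3 genes nearest in log2 ratio to each of miR-23 and miR-27, and the 2 most abundant genes of each list. Other genes named were chosen after their values were seen.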

Additional observations from a re-analysis of the deposited data

Results flagged for a closer look

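Reads on the opposite strand of Mir24-1, a column that no comparison of the 6 genes uses, numbered 17 in replicate 1 and 6 in replicate 2, above the 3 counts that a count of 0 allows. They equal the own-strand counts of the antisense gene Mir3074-1. The other 5 genes had 0 opposite-strand reads in both libraries.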

How the results depend on the processing

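Of 64 values recomputed with both replicates, 57 kept their direction and side of the threshold, or stayed within the spread or interval of the reported value (for counts and percentages of pairs, within 1.5 times). Some of the 57 could not have changed, so this number overstates stability. A prior count of 5 alters neither the p-value nor the direction of a log2 ratio. With strand ignored, the changes in ratio among miR-23 and miR-27 genes rest on the same counts. The 14 values with a replicate left out say nothing about stability, since with 2 replicates each lies within 1 SD of the mean by construction. The 5 calls among the 6 genes held under every setting except with strand ignored, where 4 were left because both miR-24 genes are at 0 CPM there. The summed share moved from 8.08% to 4.32% with reads that align to several places in the denominator, and to 12.6% without the 5 most abundant other genes (Mirlet7b, Mirlet7g, Mir375, Mir378a and Mir139). With 1 replicate left out it was 5.47% or 10.7%. The log2 ratio of Mir24-1, not called in any setting, changed sign to −0.0703 with DESeq2 size factors, −0.0156 with total counts and −0.110 with no filter on low counts; the factors alone set these shifts. Over the same settings Mir23a ranged from 1.05 to 1.20, Mir23b from 0.95 to 1.10, Mir27a from −0.82 to −0.67, Mir27b from −0.78 to −0.63 and Mir24-2 from −1.01 to −0.86. The miR-24 genes rest on 575 and 331 counts, which sets the width of their intervals.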
